A study of Mus musculus with 6 samples.

Results

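The osteoblast and osteocyte genes described here are 10 genes of bone-forming cells, *Runx2*, *Sp7*, *Alpl*, *Phex*, *Sost*, *Dmp1*, *Ibsp*, *Spp1*, *Bglap* and *Bglap2*, of 51802 gene symbols in the deposited tables. They were chosen by name as bone markers after earlier results on these same 6 samples were known, in which their levels differed between mutant replicates, so their difference between genotypes is given as a description with no test. Expected counts and FPKM (fragments per kilobase of transcript, scaled to sequencing depth) were summed over the 38 transcripts listed for these symbols. All 10 genes passed the filter on low counts, beside 17136 genes that passed in all.

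The samples were cochleae of 2-month-old mice on a C57/BL6J background, 3 of wildtype mice (replicates 3, 4 and 5) and 3 of littermates with the genotype *Pou4f3(Δ/+)* (replicates 1, 2 and 3). *Pou4f3(Δ/+)* mice carry one germline knock-in copy of *Pou4f3*, a transcription factor gene of hair cells, with a short deletion that leads to a truncated protein, and one wildtype copy. The knock-in is present in every cell and not limited to the ear, and the labels do not say whether a sample was 1 animal or a pool, nor whether bone was trimmed away. The summed counts ran from 14295069 to 17696784 per sample. Counts of *Pou4f3* itself spanned 68 to 88 over the wildtype and 52 to 97 over the mutant samples, and summed counts do not separate its mutant from its wildtype copy, so this gene checks no label. Hair cell markers were present in all samples, with *Myo7a*, a hair cell myosin, at 8.13 to 10.3 FPKM.

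The cochlea is enclosed in the otic capsule, one of the densest bones of the body, which is known for very little remodelling in adult life. Osteoblasts lay down a collagen matrix and mineralise it under the transcription factors Runx2 and Sp7 (osterix), and those that become buried in the matrix turn into osteocytes. Alkaline phosphatase (*Alpl*) frees phosphate for mineral, osteocalcin (*Bglap*, *Bglap2*), bone sialoprotein (*Ibsp*) and osteopontin (*Spp1*) are secreted proteins of the bone matrix, *Dmp1* and *Phex* act in osteocytes on mineral and phosphate, and *Sost* encodes sclerostin, an osteocyte inhibitor of Wnt signalling.

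Both osteocalcin genes lie beside another copy, *Bglap3*, on the minus strand of chromosome 3 within 15.8 kb (GENCODE M21, GRCm38: *Bglap3* chr3:88368616-88372743, *Bglap2* chr3:88377736-88378699, *Bglap* chr3:88383501-88384464). Their coding sequences, each of 288 bases in 4 exons, are shown because their likeness bears on how reads can be assigned among them. Capitals mark the bases that differ from *Bglap*, 4 in *Bglap2* (98.61% identity) and 13 in *Bglap3* (95.49% identity).
Bglap: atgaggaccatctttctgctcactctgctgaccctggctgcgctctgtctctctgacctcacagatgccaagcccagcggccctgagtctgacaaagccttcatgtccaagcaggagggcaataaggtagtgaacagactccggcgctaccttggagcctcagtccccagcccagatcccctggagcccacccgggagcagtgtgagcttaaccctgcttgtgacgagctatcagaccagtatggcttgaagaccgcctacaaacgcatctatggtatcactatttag
Bglap2: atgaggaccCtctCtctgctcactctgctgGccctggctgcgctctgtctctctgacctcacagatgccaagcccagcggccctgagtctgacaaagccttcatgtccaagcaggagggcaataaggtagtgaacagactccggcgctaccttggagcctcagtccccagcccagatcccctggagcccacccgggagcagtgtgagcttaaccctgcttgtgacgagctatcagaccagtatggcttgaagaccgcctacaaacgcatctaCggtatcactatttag
Bglap3: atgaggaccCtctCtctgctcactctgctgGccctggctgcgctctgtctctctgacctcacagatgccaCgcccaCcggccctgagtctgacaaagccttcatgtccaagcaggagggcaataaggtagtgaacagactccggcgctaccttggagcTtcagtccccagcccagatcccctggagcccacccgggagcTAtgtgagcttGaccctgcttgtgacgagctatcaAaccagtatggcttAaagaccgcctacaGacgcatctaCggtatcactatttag
Of the 291 stretches of 150 bases in the *Bglap* transcript, 92 (31.6%) occur unchanged in the *Bglap2* transcript and 0 in that of *Bglap3*. A single read within those stretches fits *Bglap* and *Bglap2* equally, while a fragment longer than the longest shared run, 241 bases, spans a difference. The deposited counts of both genes were whole in all 6 samples, and how the authors assigned reads that fit both is not given in the sources used here.

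Sequence before the start site was available in RefSeq tables (GRCm38.p6) for 8 of the 10 genes, as 11 windows of 250 bases. Windows of *Alpl*, *Bglap* and *Spp1* are shown since these genes differ in how their levels moved over the samples. Whether the letters of a window bear on those levels was not tested. Capitals mark ACCACA, the core letters bound by Runx factors, TATAAA, the letters of a TATA box, and GGGCGG, a GC box. Each was searched on both strands at any position in the window, and no match overlapped one of another motif.
Alpl, chr4:137796385-137796634, minus strand: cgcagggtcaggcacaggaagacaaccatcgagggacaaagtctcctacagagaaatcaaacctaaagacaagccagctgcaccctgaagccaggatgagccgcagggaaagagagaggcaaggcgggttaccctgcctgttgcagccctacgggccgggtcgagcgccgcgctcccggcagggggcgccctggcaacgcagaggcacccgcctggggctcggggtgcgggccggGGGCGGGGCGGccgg
Bglap, chr3:88384467-88384716, minus strand: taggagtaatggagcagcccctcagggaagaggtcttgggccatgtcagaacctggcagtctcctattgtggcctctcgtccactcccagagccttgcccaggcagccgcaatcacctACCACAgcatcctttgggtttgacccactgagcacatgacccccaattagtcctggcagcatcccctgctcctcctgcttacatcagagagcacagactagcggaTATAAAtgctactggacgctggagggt
Spp1, chr5:104434861-104435110, plus strand: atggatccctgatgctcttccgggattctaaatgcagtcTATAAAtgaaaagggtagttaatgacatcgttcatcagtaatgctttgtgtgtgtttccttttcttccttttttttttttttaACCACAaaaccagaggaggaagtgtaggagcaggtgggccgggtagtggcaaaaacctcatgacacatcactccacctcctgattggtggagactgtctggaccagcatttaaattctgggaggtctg
ACCACA occurred in 4 of the 11 windows, of *Runx2*, *Dmp1*, *Bglap* and *Spp1*, against 14.0% of all 32851 windows of this length. It began 132 bases before the start in *Bglap* and 128 in *Spp1*. TATAAA occurred in 4 of the 11 windows, of *Alpl* (its other window), *Ibsp*, *Bglap* and *Spp1*, against 12.4% of all windows. It began 27 bases before the start in *Bglap* and 28 in *Ibsp*, but 211 in *Spp1* and 192 in *Alpl*. That *Alpl* window precedes transcript ENSMUST00000139951, which had 0 counts in all 6 samples. GGGCGG occurred in 1 of the 11 windows, that of *Alpl* shown, against 32.7% of all windows. A match describes the letters of a window and not a bound site.

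By mean FPKM over the 6 samples, *Spp1* stood far above the other genes of bone-forming cells, at 2969 FPKM and place 12 among the 17136 genes tested. *Ibsp* followed at 405 FPKM (place 104), then *Dmp1* at 82.6, *Alpl* at 56.6, *Bglap2* at 40.3, *Sost* at 36.4, *Phex* at 31.5, *Bglap* at 20.5, *Sp7* at 18.3 and *Runx2* at 16.1 FPKM (place 5730). *Spp1* exceeded *Ibsp*, and *Ibsp* exceeded *Dmp1*, in 6 of 6 samples, on log2(FPKM + 0.5) by 2.89 ± 0.35 and 2.25 ± 0.41 (SD, n = 6). Each of these 2 pairs had p = 0.0313 in an exact two-sided sign-flip permutation test, the smallest that 6 samples allow, and an adjusted p of 0.141 over the 9 neighbouring pairs. The pairs were formed by the same mean levels, and with 6 samples no adjusted p can fall under 0.05 unless at least 6 of the 9 pairs reach that smallest value, so the adjusted values say little about any pair. At an unadjusted p under 0.05 there were 2 of 9 pairs, and 5 of 9 (smallest adjusted p 0.0563) when the most abundant transcript of each gene was used in place of the sum, in the same exact test. Every pair from *Dmp1* downward held its order in 4 or 5 of the 6 samples, so these neighbours were not ordered alike in all samples. *Spp1* also made up 76.3% to 84.9% of the FPKM summed over the 10 genes and 0.351% to 0.581% of all counts in a sample.

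The 10 genes did not move as one between genotypes. 6 read lower and 4 higher in *Pou4f3(Δ/+)*, with a median log2 fold change of -0.07 against -0.0027 over all genes tested. By edgeR's quasi-likelihood test with Benjamini-Hochberg adjustment 0 of 17136 genes (0%) had an adjusted p under 0.05, with 1309 genes (7.64%) at an unadjusted p under 0.05 and 0 genes called by limma on log2(FPKM + 0.5). DESeq2 called 64 of 17108 genes (0.374%), and edgeR without *Pou4f3(Δ/+)* replicate 3 called 193 of 17513 (1.1%). These are counts over all genes, and no call is read for the 10. All *Pou4f3(Δ/+)* samples lay below all wildtype samples for 2 of the 10 genes, *Sp7* and *Alpl*, where 6.59% of all genes tested did so. All *Pou4f3(Δ/+)* samples lay above all wildtype samples for 0 of the 10, where 6.07% of all genes did. Since a sample is cochlear tissue with its cell types mixed, fewer cells of a type and less RNA per cell cannot be told apart for any of these values.

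**Figure D1:**
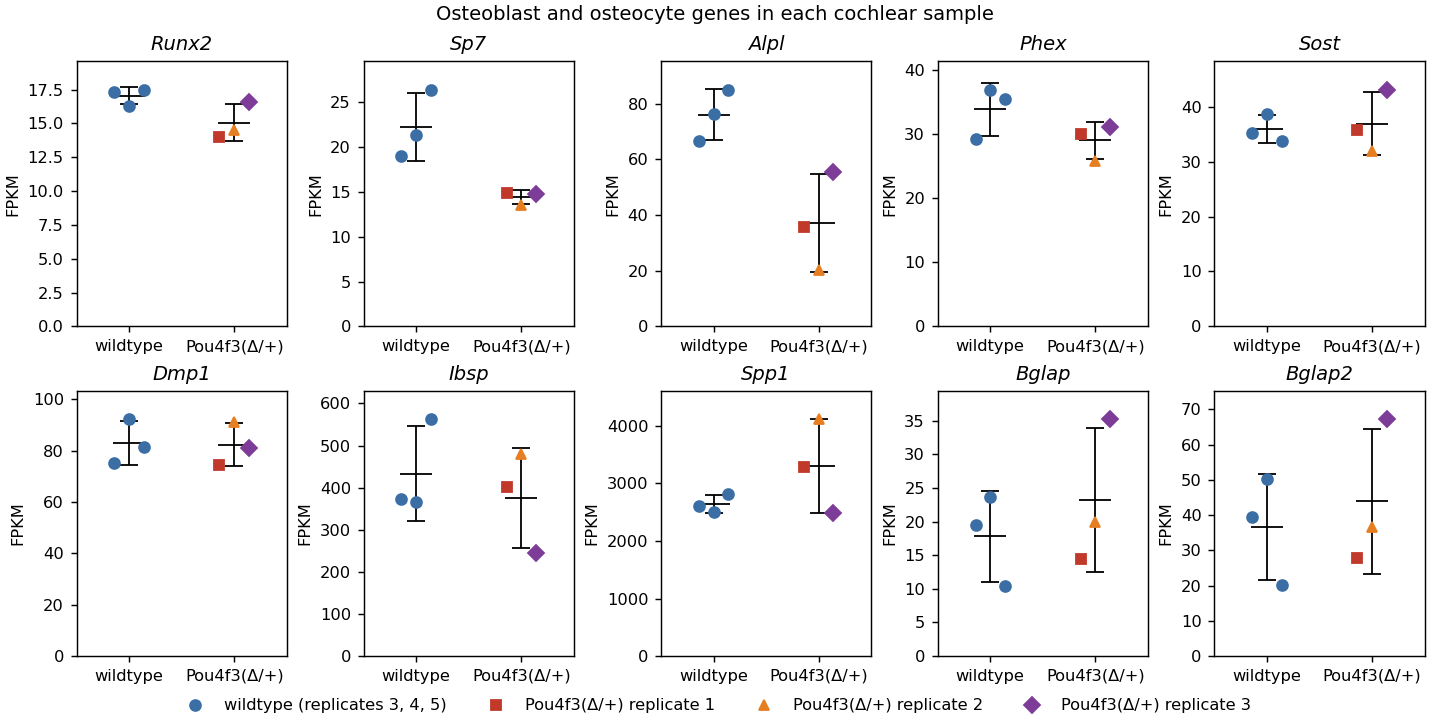
FPKM of each of the 10 genes in each sample, with wildtype on the left and *Pou4f3(Δ/+)* on the right of each panel, lines for the mean and bars for the SD (n = 3), and the 3 mutant replicates drawn with different marks. *Sp7* and *Alpl* show mutant samples below all wildtype samples, while *Bglap* and *Bglap2* are highest in *Pou4f3(Δ/+)* replicate 3 and *Spp1* in replicates 1 and 2.

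*Runx2*, the factor that commits cells to the osteoblast lineage, varied by a factor of 1.25 between its lowest and highest sample. It read 17.4, 16.3 and 17.5 FPKM in wildtype replicates 3, 4 and 5, and 14.0, 14.5 and 16.6 FPKM in *Pou4f3(Δ/+)* replicates 1, 2 and 3. *Pou4f3(Δ/+)* replicates 1 and 2 were the lowest samples and replicate 3 lay within the wildtype range. The log2 fold change was -0.12 (SE 0.08), and -0.02 without *Pou4f3(Δ/+)* replicates 1 and 2. *Runx2* has a distal and a proximal start site on chromosome 17, and transcripts from the distal one made up 56.4% ± 7.6 (SD, n = 3) of its FPKM in wildtype, against 57.7% ± 4.1 (SD, n = 3) in the mutant, ranges that overlapped.

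*Sp7*, the zinc finger factor that acts after Runx2 in osteoblast maturation (chr15:102356606-102367182, ENSMUSG00000060284), read 19.0, 21.3 and 26.4 FPKM in the wildtype and 14.9, 13.5 and 14.8 FPKM in the *Pou4f3(Δ/+)* replicates. The 3 *Pou4f3(Δ/+)* samples lay close together and below every wildtype sample, replicate 3 included. The log2 fold change was -0.63 (SE 0.12), or a fold of 0.646, on 608 to 1318 counts. Leaving out *Pou4f3(Δ/+)* replicates 1 and 2 gave -0.61, so replicate 3 alone showed the same size.

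*Alpl*, the phosphatase of the osteoblast membrane (chr4:137741733-137796384, ENSMUSG00000028766), differed most in size among the 10. It read 66.7, 76.5 and 85.1 FPKM in the wildtype and 35.7, 20.2 and 55.5 FPKM in the *Pou4f3(Δ/+)* replicates. All *Pou4f3(Δ/+)* samples lay below all wildtype samples, but replicate 2 had less than replicate 1 and replicate 3 came nearest to wildtype. The log2 fold change was -1.07 (SE 0.29), a fold of 0.477, with 2888, 2656 and 3622 counts in the wildtype replicates against 1518, 751 and 2003 counts in the mutant ones. Without *Pou4f3(Δ/+)* replicate 3 it was -1.47, and without replicates 1 and 2 it was -0.48. Transcript ENSMUST00000030551, which starts next to the window with the GC boxes shown above, carried 94.2% to 99.4% of the FPKM of *Alpl* in every sample.

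**Figure D2:**
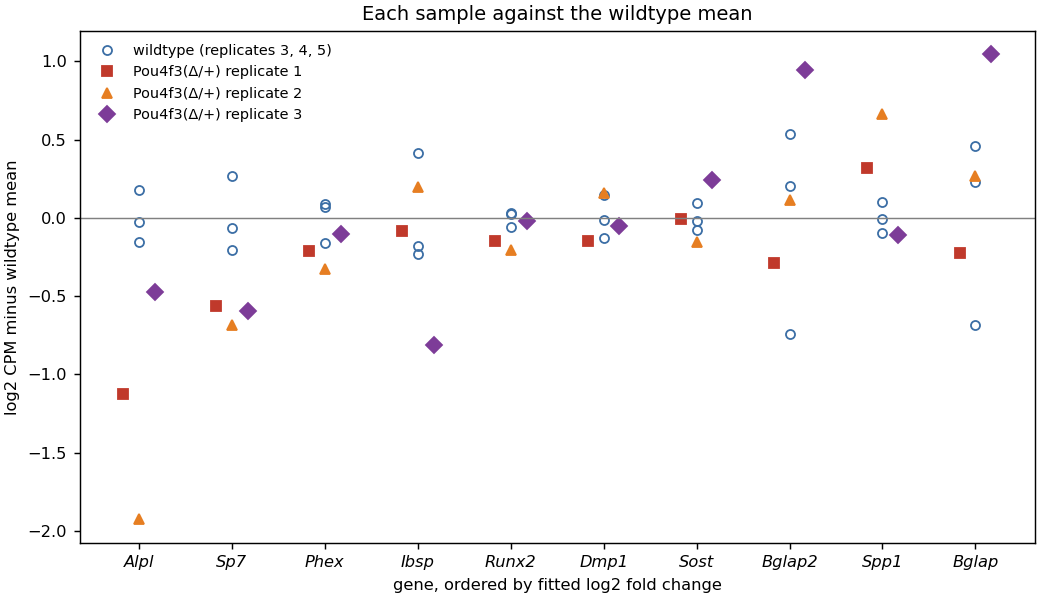
Log2 CPM (depth-scaled counts, with TMM factors) of each sample minus the wildtype mean, for the 10 genes in the order of their fitted log2 fold change. The 3 mutant marks sit together for *Sp7*, at -0.57, -0.69 and -0.59, and lie on both sides of 0 for 6 of the 10 genes, *Ibsp*, *Spp1*, *Dmp1*, *Sost*, *Bglap* and *Bglap2*.

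Among the osteocyte genes, *Phex*, a membrane endopeptidase whose loss causes phosphate wasting, read 29.2, 37.0 and 35.6 FPKM in wildtype and 30.1, 25.8 and 31.2 FPKM in *Pou4f3(Δ/+)* samples. The FPKM ranges overlapped, and the log2 fold change was -0.22 (SE 0.09). *Sost* read 35.3, 38.7 and 33.8 FPKM in wildtype and 35.7, 31.9 and 43.1 FPKM in *Pou4f3(Δ/+)* samples. The highest and the lowest sample were both *Pou4f3(Δ/+)*, replicates 3 and 2, and the log2 fold change was 0.04 (SE 0.11). *Dmp1*, an acidic phosphoprotein of the osteocyte matrix, read 75.2, 92.3 and 81.3 FPKM in wildtype and 74.5, 91.1 and 81.1 FPKM in *Pou4f3(Δ/+)* samples. Both genotypes covered nearly the same range, with a log2 fold change of -0.01 (SE 0.11). The SE of *Sost* and *Dmp1* bounds how small a difference these 6 samples could show and does not show equal levels.

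*Dmp1*, *Ibsp* and *Spp1* lie in a row on the plus strand of chromosome 5 with *Dspp* and *Mepe*, a group of secreted phosphoproteins that bind integrins, within 270 kb. In order of position these are *Dspp*, *Dmp1*, *Ibsp*, *Mepe* and *Spp1*. *Dspp*, the dentin member, had 0 or 1 counts per sample, while *Mepe*, an osteocyte phosphoglycoprotein, read 87.3, 87.7 and 90.0 FPKM in wildtype and 77.9, 72.4 and 77.1 FPKM in *Pou4f3(Δ/+)* samples. Neighbours in this row thus differed in level by large factors and in their pattern over samples.

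*Ibsp*, which nucleates mineral and binds cells, read 373, 365 and 563 FPKM in wildtype and 401, 480 and 246 FPKM in *Pou4f3(Δ/+)* samples. *Pou4f3(Δ/+)* replicate 3 was the lowest of all samples and replicates 1 and 2 lay within the wildtype range. The log2 fold change was -0.21 (SE 0.25), and it was 0.04 without *Pou4f3(Δ/+)* replicate 3 and 0.03 without wildtype replicate 5, the highest sample. *Spp1*, a phosphoprotein to which osteoclasts attach and which macrophages and other cells also make, read 2613, 2496 and 2816 FPKM in wildtype and 3286, 4116 and 2487 FPKM in *Pou4f3(Δ/+)* samples. *Pou4f3(Δ/+)* replicates 1 and 2 were above every other sample and replicate 3 was the lowest, with a log2 fold change of 0.32 (SE 0.18) over all samples. It was 0.12 without replicate 2, 0.50 without replicate 3 and -0.11 without replicates 1 and 2.

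*Bglap*, the osteocalcin gene, read 19.5, 23.6 and 10.4 FPKM in wildtype and 14.5, 19.9 and 35.2 FPKM in *Pou4f3(Δ/+)* samples, on 77 to 227 counts. *Bglap2* read 39.4, 50.2 and 20.3 FPKM in wildtype and 28.0, 36.6 and 67.2 FPKM in *Pou4f3(Δ/+)* samples, on 164 to 464 counts. In both genes *Pou4f3(Δ/+)* replicate 3 was the highest and wildtype replicate 5 the lowest sample, and the genotypes overlapped, with log2 fold changes of 0.38 (SE 0.37) and 0.26 (SE 0.37). The ratio of *Bglap* to *Bglap2* counts stayed between 0.432 and 0.506 in the 6 samples, for a pair of genes whose transcripts share the stretches described above. *Bglap3*, the copy with no shared stretch of that length, read 6.01, 7.26 and 8.08 FPKM in wildtype and 5.17, 4.63 and 5.90 FPKM in *Pou4f3(Δ/+)* samples, and its count ratio to *Bglap2* ran from 0.220 to 0.750.

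*Pou4f3(Δ/+)* replicates 1 and 2 lay below the other 4 samples for 3 of the 10 genes on log2 CPM (*Runx2*, *Alpl* and *Phex*), where 15.8% of all genes tested did so. They lay above the other 4 for *Spp1*, where 14.9% of all genes did. Over the 6 samples the 45 pairs among the 10 genes gave 21 positive and 24 negative Pearson correlations of log2 CPM with a median of -0.03. These are descriptions over points that share a library, with no test. The highest was 0.99 for *Bglap* with *Bglap2*, and *Runx2* with *Alpl* gave 0.93, *Alpl* with *Phex* 0.89, *Sp7* with *Phex* 0.86 and *Sp7* with *Alpl* 0.83. The lowest was -0.92 for *Ibsp* with *Sost*, and *Alpl* with *Spp1* gave -0.88. *Runx2*, *Sp7*, *Alpl* and *Phex* gave only positive values among themselves, the lowest being 0.71 for *Runx2* with *Phex*.

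The mean of the 10 genes' standardised log2 CPM ran from -0.49 in *Pou4f3(Δ/+)* replicate 1 to 0.43 in wildtype replicate 4. The genes whose log2 CPM most resembled this mean over the 6 samples, with Pearson r from 0.982 to 0.990, were *Zfp13*, *Acat1*, *Cacna1d*, *Wwox*, *4833439L19Rik*, *Disc1*, *Scg3*, *Tatdn3*, *Pigg* and *Aifm2*. They were the highest of 17136 genes over only 6 samples.

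Other genes of the bone programme were counted in 8 lists of 99 genes, of which 94 were tested. Of these 94, 0 were called by edgeR at an adjusted p under 0.05, 0 by limma and 1 by DESeq2 (*Bgn*). At an unadjusted p under 0.05 there were 22 (23.4%), 21 lower and 1 higher in *Pou4f3(Δ/+)*, against 7.64% of all genes tested, and the median log2 fold change was -0.11. The groups lay apart, all *Pou4f3(Δ/+)* samples below all wildtype, for 14 of the 94 (14.9%) against 6.59% of all genes, and above for 1. The 8 lists were chosen with earlier results on these same samples known, so these shares are descriptions and no test of the bone programme.

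The matrix list held 8 of these 22 genes, more than any other list. Of its 13 genes 13 had a negative log2 fold change, with a median of -0.44, while edgeR's smallest adjusted p was 0.643. *Sparc* (osteonectin, a collagen-binding glycoprotein) read 382, 390 and 538 FPKM in wildtype and 408, 417 and 386 FPKM in *Pou4f3(Δ/+)* samples, which overlapped. *Bgn* (biglycan, a small proteoglycan) read 218, 247 and 264 FPKM in wildtype and 162, 147 and 193 FPKM in *Pou4f3(Δ/+)* samples, with a log2 fold change of -0.51 (SE 0.11). *Postn* (periostin, a matrix protein of periosteum) had a log2 fold change of -0.44 (SE 0.12) and *Col5a2*, a fibrillar collagen chain, one of -0.55 (SE 0.15). *Mgp*, an inhibitor of calcification, had one of -0.15 (SE 0.16). *Col1a1*, the main collagen chain of bone, was named after its values were seen: 78.4, 86.9 and 132 FPKM in wildtype against 51.8, 48.4 and 77.7 FPKM in *Pou4f3(Δ/+)* samples, with a log2 fold change of -0.75 (SE 0.22).

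In the mineral and phosphate list 4 of 8 tested genes had an unadjusted p under 0.05, all lower, with a median log2 fold change of -0.15. They included *Ank*, a pyrophosphate exporter, at 60.6, 65.8 and 61.6 FPKM in wildtype and 51.0, 46.3 and 56.8 FPKM in *Pou4f3(Δ/+)* samples, and *Smpd3*, a sphingomyelinase needed for mineralisation, at 7.02, 8.20 and 9.34 against 3.51, 3.50 and 7.37 FPKM. *Mepe*, with a log2 fold change of -0.22 (SE 0.07), was another. *Slc20a1*, a phosphate transporter, had a log2 fold change of 0.15 (SE 0.10). Of 12 other transcription regulators 3 had an unadjusted p under 0.05, all lower, among them *Dlx3* at -0.36 (SE 0.15) and *Dlx5* at -0.33 (SE 0.14), homeobox factors that act in osteoblast differentiation. *Atf4*, a factor of amino acid supply in osteoblasts and of stress in all cells, read 166 and 156 FPKM in *Pou4f3(Δ/+)* replicates 1 and 2, and 110 to 123 in the other 4 samples. *Cbfb*, the partner of Runx2, had a log2 fold change of 0.06 (SE 0.08) and *Sox9*, the cartilage factor, one of 0.13 (SE 0.12).

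Of the 10 tested osteocyte genes only *Mepe* had an unadjusted p under 0.05, and the median was -0.13. *Mmp14*, a membrane protease, had a log2 fold change of -0.15 (SE 0.08) and *Ackr3*, a chemokine receptor, one of -0.11 (SE 0.09). *Pdpn*, an early osteocyte marker, was listed at 0 in all 6 samples, which may be a failed estimate and is not read as absence.

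For the osteocyte, Wnt and BMP lists the counts at an unadjusted p under 0.05 were small and are to be read against the 7.64% of all genes tested. Among 21 tested genes of Wnt signalling there was 1, *Sfrp2*, a secreted Wnt antagonist, at 2.94, 2.02 and 3.46 FPKM in wildtype and 1.07, 0.90 and 2.34 FPKM in *Pou4f3(Δ/+)* samples. *Ctnnb1* (beta-catenin) had a log2 fold change of -0.12 (SE 0.09), *Sfrp4* one of 0.04 (SE 0.12) and *Dkk3* one of -0.18 (SE 0.11). Of 18 genes of BMP signalling 2 passed that unadjusted level, in opposite directions. *Nog* (noggin), a BMP antagonist, had a log2 fold change of 1.03 (SE 0.41) and *Chrd* (chordin), another antagonist, one of -0.69 (SE 0.27), both at under 2 FPKM in every sample. The BMP receptor *Bmpr1a* had one of -0.05 (SE 0.10), *Smad4* one of 0.09 (SE 0.08) and the target *Id1* one of -0.11 (SE 0.15).

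Of 12 receptors and factors for hormones, FGF23 and matrix proteins 2 had an unadjusted p under 0.05. *Pth1r*, the parathyroid hormone receptor of osteoblasts, had a log2 fold change of -0.31 (SE 0.12) and *Fgfr2* one of -0.18 (SE 0.07). *Cd44* and *Itgb3*, receptors for osteopontin, had log2 fold changes of 0.02 (SE 0.10) and 0.10 (SE 0.13), and *Fgfr1* one of -0.04 (SE 0.07). Of 5 genes by which osteoblasts direct osteoclasts 2 passed that level: *Tnfrsf11b* (osteoprotegerin, the decoy receptor) at 56.7, 66.0 and 71.1 FPKM in wildtype and 53.4, 52.2 and 48.8 FPKM in *Pou4f3(Δ/+)* samples, and *Tnfrsf11a* (RANK, the osteoclast receptor) at -0.52 (SE 0.18). *Csf1* had a log2 fold change of -0.21 (SE 0.13) and *Csf1r* one of -0.03 (SE 0.09).

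**Figure D3:**
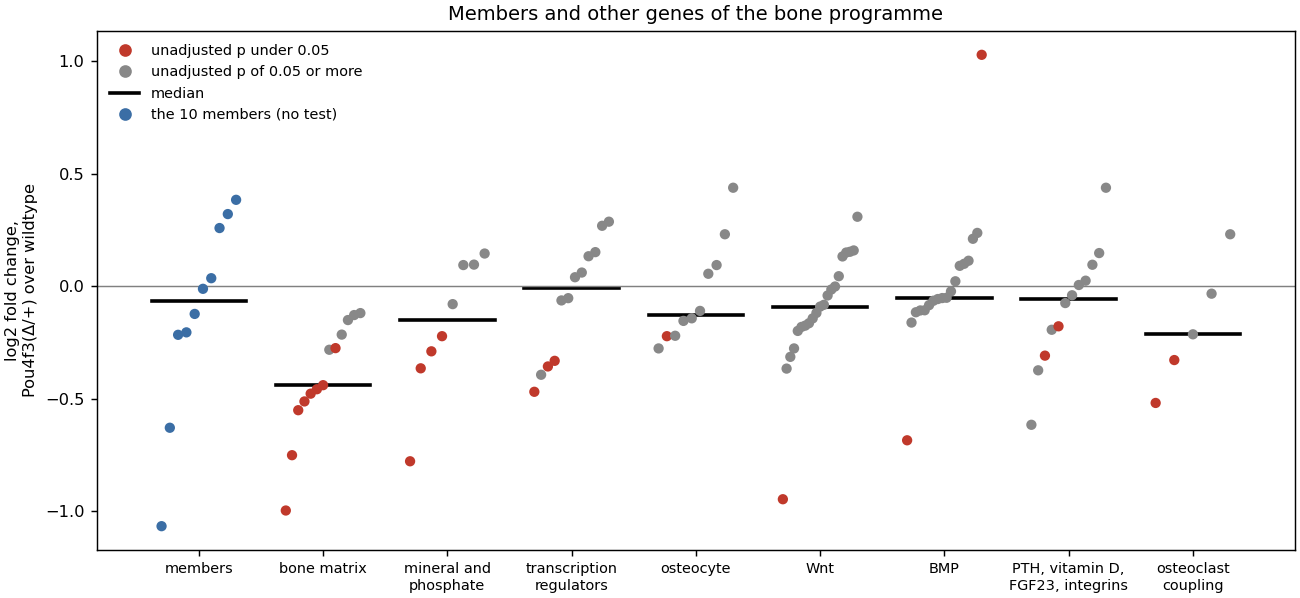
Log2 fold changes (*Pou4f3(Δ/+)* over wildtype) of the 10 genes and of the tested genes of 8 bone lists, one point per gene, lines for medians, and red for an unadjusted p under 0.05. The matrix list has the lowest median, at -0.44 with all 13 points below 0, while the 10 genes spread from -1.07 to 0.38.

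Markers of other cells in the cochlear sample moved between samples as well, and their part in these values was not tested. B cell markers summed to 235 to 286 CPM in wildtype and to 539, 592 and 294 CPM in *Pou4f3(Δ/+)* replicates 1, 2 and 3, with 9 of 9 higher in *Pou4f3(Δ/+)* and 9 at an unadjusted p under 0.05. Red cell markers summed to 8714 to 10193 CPM in wildtype and to 12094, 13530 and 9444 CPM in *Pou4f3(Δ/+)* samples (8 of 8 higher), so that replicates 1 and 2, the samples with most *Spp1*, also had the most of both. Osteoclast markers summed to 1722 to 2219 CPM in wildtype and to 2293, 1963 and 1422 CPM in *Pou4f3(Δ/+)* samples, with 0 of 10 at an unadjusted p under 0.05. The 3 osteoclast markers highest in FPKM, *Acp5*, *Ctsk* and *Mmp9*, were at 176 FPKM or more in every sample. *Pou4f3(Δ/+)* replicate 3, lowest in *Ibsp* and *Spp1*, was lowest in all 3, and in *Calcr*, *Dcstamp*, *Ocstamp* and *Oscar*. For *Tcirg1*, *Clcn7* and *Atp6v0d2* of the same list the lowest sample was *Pou4f3(Δ/+)* replicate 2.

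Stria vascularis markers summed to 1282 to 1414 CPM in wildtype and to 1079, 986 and 1246 CPM in *Pou4f3(Δ/+)* samples, 7 of 7 lower. *Kcne1*, a potassium channel subunit of the stria, read 47.1, 47.7 and 49.3 FPKM in wildtype and 28.4, 16.0 and 34.7 FPKM in *Pou4f3(Δ/+)* samples. Of 6 markers of spiral ligament fibrocytes 5 read lower and 1 higher (*Otos*) in *Pou4f3(Δ/+)*, 2 of them at an unadjusted p under 0.05. These 2, *Otor* and *Slc4a11*, read 20.8, 12.7 and 36.3 FPKM and 131, 107 and 207 FPKM in *Pou4f3(Δ/+)* replicates 1, 2 and 3, below their wildtype samples and in the same order of replicates as *Alpl*, while *Coch*, the most abundant, had a log2 fold change of -0.17 (SE 0.13) and overlapped between genotypes. Fibrocyte markers as a whole summed to 6314 to 8317 CPM in wildtype and 5774 to 6241 CPM in *Pou4f3(Δ/+)* samples, without overlap. Schwann cell markers summed to 1875 to 2199 CPM in wildtype and to 1623, 1650 and 2204 CPM in *Pou4f3(Δ/+)* samples. Neutrophil markers (12329 to 14588 CPM in wildtype, 11996 to 14565 CPM in *Pou4f3(Δ/+)*) and hair cell markers (121 to 124 CPM and 113 to 132 CPM) overlapped between genotypes.

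**Figure D4:**
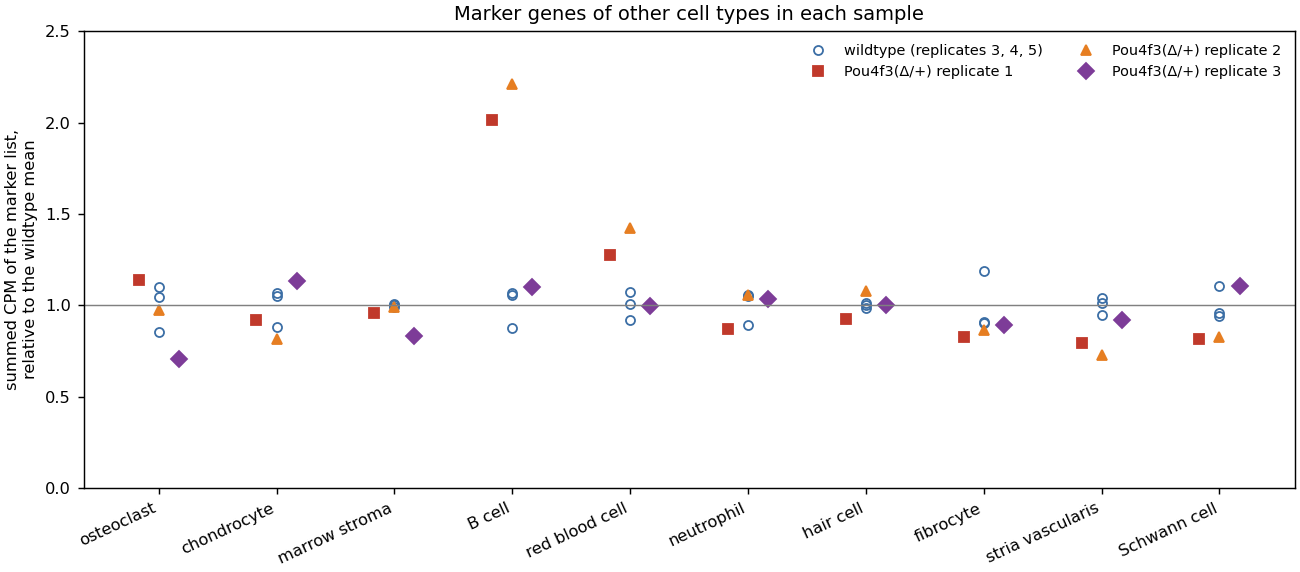
Summed CPM of 10 marker lists in each sample, divided by the wildtype mean of the list. The B cell and red cell lists are highest in *Pou4f3(Δ/+)* replicates 1 and 2, and the stria vascularis and fibrocyte lists are below all wildtype samples in all 3 *Pou4f3(Δ/+)* samples.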

How the data were processed

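Cochlear RNA of 3 wildtype and 3 *Pou4f3(Δ/+)* samples was sequenced after poly(A) selection or rRNA removal. For each sample the authors deposited, per transcript, expected counts and FPKM. The submitters' processing notes name DESeq2 and the build mm8; of the transcript identifiers 99.5% are in GENCODE M21 (GRCm38), whose coordinates are used here, and 97.2% of listed lengths equal the genomic span. The aligner and counter are not given in the sources used here.

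Counts and FPKM were summed per gene symbol, and counts rounded. Genes that passed filterByExpr (minimum count 10, total 15) were tested with edgeR 4.0.16 (quasi-likelihood, TMM, R 4.3.3), Benjamini-Hochberg adjustment over 17136 genes and a threshold of 0.05, with a prior count of 2 for log2 CPM. DESeq2 1.42.0 and limma 3.58.1 on log2(FPKM + 0.5) were alternatives, beside other scalings, filters, pseudocounts and samples left out. The scripts were tested on simulated data. Summed counts were 14295069 to 17696784 per sample. Nothing says that the samples are separate animals, so p-values measure only the spread between them. The 10 genes and all lists were chosen with earlier results of these data known. Named beyond the 10 and *Bglap3* were, of each list, the 3 tested genes highest in FPKM and up to 3 with the smallest unadjusted p under 0.05, and the 10 genes most like the mean of the 10; a gene that this rule named is not reported here. Pairs of neighbours in level were compared with SciPy 1.17.1.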

Additional observations from a re-analysis of the deposited data

How the results depend on the processing

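No paired analysis was made because the labels give no pairs, and the replicate numbers, of which the genotypes share only 1, define none. The number of genes called, 0 by edgeR, was 64 with DESeq2, 1 with limma on log2(FPKM + 0.1), 9 without a filter, 0 to 193 when 1 sample was left out (193 without *Pou4f3(Δ/+)* replicate 3 and 3 without wildtype replicate 4) and 6 without *Pou4f3(Δ/+)* replicates 1 and 2, a choice made after seeing the data that leaves 1 mutant sample assumed to vary like the wildtype group. Of the genes in all lists, those of other cells included, 0 were called, against 9 with DESeq2 and 0 to 18 when 1 sample was left out (18 without *Pou4f3(Δ/+)* replicate 3). From the bone lists these held only *Bgn* with DESeq2, and *Atf4*, *Bgn* and *Smpd3* without *Pou4f3(Δ/+)* replicate 3. The rest were markers of other cells. The median log2 fold change of the 10 genes stayed between -0.12 and -0.03 over 13 alternatives. *Sp7* stayed between -0.73 and -0.48. *Alpl* ranged from -1.47 to -0.77 over the other alternatives and was -0.48 without *Pou4f3(Δ/+)* replicates 1 and 2. With 1 sample left out, the sign of *Ibsp* (-0.43 to 0.04), *Dmp1* (-0.10 to 0.07), *Bglap* (-0.03 to 0.64), *Bglap2* (-0.16 to 0.55) and *Sost* (-0.07 to 0.12) was not fixed. Without *Pou4f3(Δ/+)* replicates 1 and 2, *Ibsp* was -0.84, *Spp1* -0.11, *Runx2* -0.02, *Sost* 0.24, *Phex* -0.10, *Dmp1* -0.05, *Bglap* 0.98 and *Bglap2* 0.86. *Spp1* was 0.12 to 0.50 with 1 sample left out. On FPKM in place of log2 CPM, 2 rather than 3 of the 10 genes had *Pou4f3(Δ/+)* replicates 1 and 2 below the other samples.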

Other observations

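Cartilage and marrow stroma markers, which lie beside bone in the otic capsule, were also read. Of 9 tested cartilage markers 1 had an unadjusted p under 0.05, *Ihh*, the hedgehog ligand of hypertrophic chondrocytes, at 0.75, 1.07 and 1.51 FPKM in wildtype and 0.45, 0.62 and 0.63 FPKM in *Pou4f3(Δ/+)* samples (log2 fold change -1.13, SE 0.37, adjusted p = 0.643 by edgeR). *Col2a1*, the main cartilage collagen, had a log2 fold change of 0.11 (SE 0.12), and *Col9a2*, another cartilage collagen chain, read 11.8 and 10.2 FPKM in *Pou4f3(Δ/+)* replicates 1 and 2 against 17.0 to 20.6 FPKM in the other 4 samples. Of 5 tested marrow stroma markers 4 read higher and 1 lower in *Pou4f3(Δ/+)*, with a median log2 fold change of 0.08. The lower one, *Cxcl12*, the chemokine that holds blood progenitors in marrow, read 455, 446 and 427 FPKM in wildtype and 370, 344 and 354 FPKM in *Pou4f3(Δ/+)* samples, without overlap (log2 fold change -0.26, SE 0.08, adjusted p = 0.643 by edgeR). Summed marker levels were 282 to 341 CPM in wildtype and 260 to 364 CPM in the mutant for cartilage, and 1461 to 1489 CPM and 1225 to 1463 CPM for marrow stroma. *Vcam1*, an adhesion molecule of stroma and endothelium, was highest in *Pou4f3(Δ/+)* replicates 1 and 2, at 89.5 and 114 FPKM.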
